A study of Mus musculus with 24 samples.

Results

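The genes described here code for 35 chains of integrins and laminins, 17 integrin α chains, 8 integrin β chains and 10 laminin chains, among 37315 genes measured in the reprogramming of neural precursor cells (NPCs) into induced pluripotent stem cells (iPSCs) with and without interferon γ (IFNγ). They were taken by symbol from a list, and all 35 were found in the normalized counts by their Ensembl identifiers in the GENCODE vM21 annotation. Other members of these families were not on the list and are not analysed here. Integrins are receptors made of an α and a β chain, by which cells hold on to the extracellular matrix and, for some chains, to other cells. Laminins join an α, a β and a γ chain, form the sheet of the basement membrane, and are bound by integrins that contain Itga3, Itga6 or Itga7. Pluripotent cells of the mouse attach to laminin largely through the pair of Itga6 and Itgb1, and neural precursors of the embryo lie on a laminin-rich basement membrane.

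The 24 libraries covered 12 populations with 2 replicates each, all from 1 cell line. This PaX line is a female embryonic stem cell (ESC) line from a cross of Mus musculus and Mus castaneus, with a GFP reporter in Hprt on the Mus musculus X chromosome, a truncated Tsix, a Nanog promoter-RFP reporter and a doxycycline-inducible MKOS cassette (c-Myc, Klf4, Oct4 and Sox2). ESCs were grown on gelatin in serum with LIF, NPCs were made from them, and reprogramming of NPCs was induced with doxycycline, LIF and ascorbic acid on irradiated male mouse embryonic fibroblast feeders, in both arms. The treated arm also received IFNγ, 10 ng/ml, beginning with day 0 and ending with day 5. CFSE-negative cells were sorted at day 2, where the feeders carried that dye, cells positive for the surface marker SSEA1 at day 5, and SSEA1-positive X-GFP-negative, -medium and -high cells at day 7, the last from cells without IFNγ for the final days. The libraries held 24746109 to 37056508 reads on genes. Values are the authors' normalized counts, reads divided by 1 size factor per library, of which 9.02 to 19.1% per library were from mt-Rnr2, a mitochondrial ribosomal RNA. The study's methods call the 2 replicates independent, and neither they nor the labels say whether these were separate cultures, so p-values measure only the spread between these libraries, which may be technical.

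Before the results, the cell populations were checked against marker lists. The summed normalized counts of 7 pluripotency genes were 126517 and 117920.0 in ESCs and 1186 and 786 in NPCs, and those of 6 neural precursor genes were 625 and 686 in ESCs and 45728 and 42058 in NPCs, as the labels have it. Male feeder RNA was present at day 2. The 4 Y-linked genes Ddx3y, Eif2s3y, Uty and Kdm5d, which the female line lacks, summed to 253 and 218 in day 2 control and 125 and 223 in day 2 IFNγ-treated libraries, and to 0 to 12.5 in the libraries of the other 10 populations. The 11 fibroblast genes summed to 62929.5 and 42492 in day 2 control and 32050.4 and 26589.6 in day 2 IFNγ-treated libraries. They were not particular to feeders, since NPCs without feeders summed to 31172 and 44505. The part of feeder RNA in the day 2 values below was not tested. In sorted bulk cells, fewer cells that make a chain and less of its RNA per cell cannot be told apart.

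The levels of the chains differed widely. The highest population mean was at least 1000 normalized counts for 17 members, at least 100 for 28 and under 100 for 7, namely Itga10, Itga2, Itgae, Itgam, Itgax, Itgb2 and Lamc3. Itgax, an α chain of dendritic cells and macrophages, had at most 3 reads in every library. Of the other leukocyte chains, Itgb2 reached at most 9.25 normalized counts in a library, Itgam 18.7, Itgae 77.3, Itgal 107 and Itgb7 1302, and the 6 blood cell genes Ptprc, Csf1r, Adgre1, Spi1, Cd14 and Coro1a together summed to 72.3 to 289.6 per library. For Itgam, 68.7% of the exon bases are shared with the gene model Gm49368 on the same strand, and for Itga10 33.5% with Gm42957, so their reads may have been split or lost in counting. The population with the highest mean was ESCs for 2 members, NPCs for 5, a day 2 population for 10, a day 5 population for 2 and a day 7 population for 16.

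**Figure D1:**
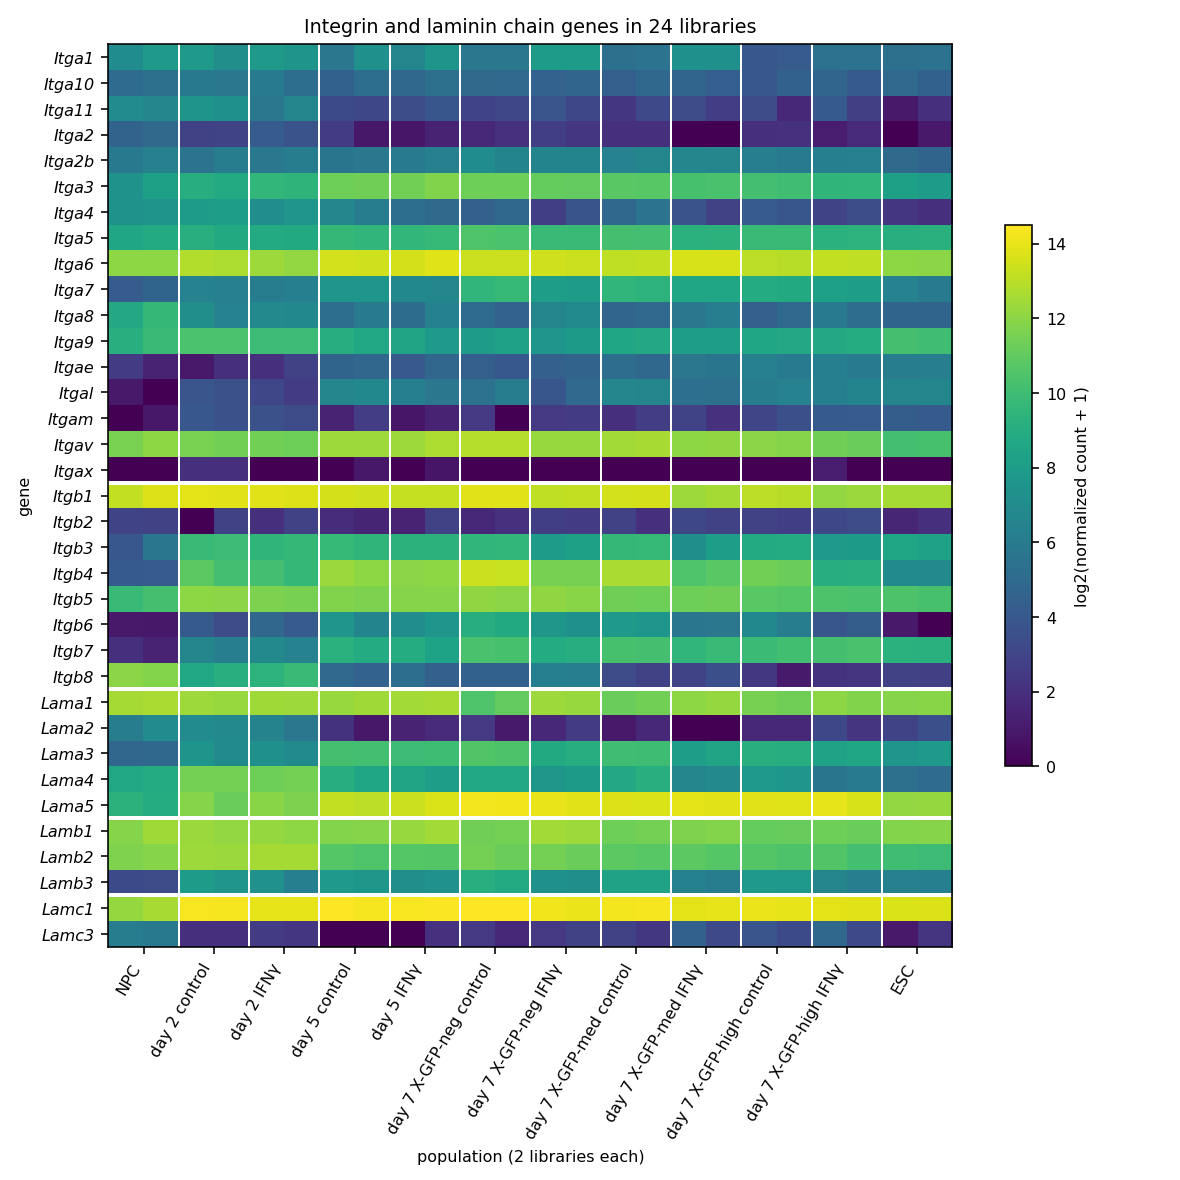
Normalized counts of the 35 integrin and laminin chain genes, drawn as log2(normalized count + 1) on a color scale from 0, with 1 row per gene in the order integrin α, integrin β and laminin chains, and 1 column per library, 2 for each of the 12 populations from NPCs at the left to ESCs at the right. Itgb8 is brightest in NPCs, Itgb4, Itgb7 and Lama3 are brighter in control X-GFP-negative cells at day 7 than at day 2 and in ESCs, and Itgax is dark throughout.

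NPCs, the starting cells, were rich in Itgb1, Itga6 and Itgav among integrin chains and in Lamc1, Lama1 and Lamb2 among laminin chains. Per kb of exon, the scale on which genes were compared with each other, Itgb1, the β chain shared by most laminin, collagen and fibronectin receptors, stood at 2295 and 3304 normalized counts in the 2 NPC libraries. Itga6 stood at 459.5 and 468 and Itgav, the α chain of vitronectin receptors, at 287 and 395, so that both libraries were higher for Itga6 than for Itgav. Itgb8, a partner of Itgav that binds the latent form of TGFβ, stood at 367 and 325 and overlapped with Itgb5, at 259 and 333. Among laminins, Lamc1, the common γ chain, stood at 567 and 761 per kb, Lama1 at 622 and 671 and Lamb2 at 545 and 606. The libraries of these 3 laminin chains overlapped, and their order is not given. Lamb1, at 382 and 557 per kb, overlapped with Lamb2.

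ESCs, the reference for the end point, shared Itgb1, Itga6, Lamc1 and Lama1 with NPCs and differed in the other leading chains. Per kb, Itgb1 stood at 1478 and 1492, Itgb5, another partner of Itgav, at 392 and 353, Itga6 at 458 and 452 and Itga9 at 157 and 137 normalized counts. Itga9 forms with Itgb1 a receptor for tenascin-C and osteopontin, and it is the integrin that the study names. Lamc1 was the leading laminin chain of ESCs with 1573 and 1651 per kb. Lama5, the α chain of most adult basement membranes, with 392 and 409.6, and Lama1, the α chain of the early embryo, with 382 and 401, overlapped each other.

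Between ESCs and NPCs, 13 of 31 members tested were higher in ESCs and 14 lower, which is 41.9% and 45.2% of them, beside 42.2% and 43.4% of all 15911 genes tested with limma at an adjusted p under 0.1. The share of members called was thus near that of all genes, and the direction of single chains is what the comparison gives. Itgb8 was at 4054 and 3596 normalized counts in the NPC libraries and 5.90 and 5.71 in the ESC libraries. No other chain separated the populations by as much, with a log2 fold change of -9.13 ± 0.16 (SE, limma adjusted p = 2.01e-06). Itgb7, the partner of Itgae and Itga4 on lymphocytes, was at 2.92 and 1.76 in NPCs and 611 and 581 in ESCs, a log2 fold change of 7.51 ± 0.28 (SE, limma adjusted p = 5.20e-06) and the largest increase among the members. In both chains the groups lay far apart. Lama5 was at 629 and 502 in NPCs and 4468 and 4664 in ESCs, 8.11-fold higher in ESCs (3.02 ± 0.12 (SE, limma adjusted p = 5.68e-06) as log2), while Lamb2, a β chain of nerve and muscle basement membranes, was at 3316 and 3684 and 1052 and 979, 3.44-fold lower (-1.78 ± 0.08 (SE, limma adjusted p = 9.09e-06) as log2). Itga6 was nearly level, with 4147 and 4223 in NPCs and 4129 and 4081 in ESCs (log2 fold change -0.03 ± 0.05 (SE, limma adjusted p = 0.651)). With every library set to an equal total, the median log2 fold change of all genes moved from -0.0270 to -0.16, and 12 members were higher and 17 lower.

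By day 2 without IFNγ, 18 of 29 members tested were higher than in NPCs and 5 were lower, which is 62.1% and 17.2% of them, beside 31.6% and 37.6% of all 15738 genes. Their median log2 fold change was 0.61, beside -0.0802 over all genes. Itgb4, the β chain of the hemidesmosome, went from 16.5 and 16.7 normalized counts in NPCs to 1834 and 1141 at day 2. Itgb3, the β chain that pairs with Itgav and, in platelets, with Itga2b, went from 14.6 and 50.1 to 875 and 993. Both rose above every NPC library, with log2 fold changes of 6.36 ± 0.26 (SE, limma adjusted p = 3.96e-05) and 5.05 ± 0.52 (SE, limma adjusted p = 5.17e-04). Lama4, the α chain of vessel and mesenchymal basement membranes, was at 410.3 and 475 in NPCs and 2859.5 and 2828 at day 2 (log2 fold change 2.68 ± 0.10 (SE, limma adjusted p = 3.43e-05)), and Itga11, a collagen receptor chain of fibroblasts, at 126 and 105 and 179 and 155 (log2 fold change 0.53 ± 0.20 (SE, limma adjusted p = 0.0572)). Fibroblasts make these 2 chains as well. In the same comparison all 4 Y-linked genes were higher, while of the 11 fibroblast genes 5 were higher and 3 lower. The part of feeder RNA in the 2 chains was not tested. The call of Itga11 was lost in 1 fit of all 24 libraries (0.392) and without NPC replicate 2 (0.167), day 2 replicate 1 (0.284) or day 2 replicate 2 (0.150). Itgb8 went the other way, from 4054 and 3596 to 400.2 and 563, 8.03-fold lower (-3.01 ± 0.17 (SE, limma adjusted p = 7.79e-05) as log2).

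From day 2 to day 5 without IFNγ, when cells positive for SSEA1 were sorted in place of CFSE-negative cells, 12 of 30 members tested rose and 13 fell, beside 34.9% and 35.6% of all 15729 genes. Lama4 fell from 2859.5 and 2828 to 523 and 361 normalized counts (log2 fold change -2.71 ± 0.16 (SE, limma adjusted p = 1.46e-05)), and Itga11 from 179 and 155 to 8.42 and 7.99 (log2 fold change -4.19 ± 0.27 (SE, limma adjusted p = 2.06e-05)). Itga9 fell from 1354 and 1320.1 to 519 and 417, 2.87-fold lower (-1.52 ± 0.12 (SE, limma adjusted p = 4.68e-05) as log2). All libraries of day 5 lay under those of day 2 in these chains, and so did their Y-linked sums of 5.89 and 2.66. At the same step 10 of the 11 fibroblast genes fell, to sums of 2947 and 2152, all 6 neural precursor genes fell and all 7 pluripotency genes rose, and the part of these markers in the chains was not tested. Among the chains that rose, Lama3, the α chain of the hemidesmosome's laminin, went from 184 and 117 to 1200.1 and 1169 (8.01-fold higher, limma adjusted p = 2.43e-05), Itga3, a laminin receptor α chain, from 524 and 466 to 2483 and 2616 (2.36 ± 0.09 (SE, limma adjusted p = 4.06e-06) as log2), and Itgb7 from 96.7 and 72.5 to 605 and 476 (2.67 ± 0.21 (SE, limma adjusted p = 3.94e-05) as log2). Lamb3, the β chain that joins Lama3, did not follow it, at 255 and 191 and then 231 and 202 (log2 fold change -0.03 ± 0.19 (SE, limma adjusted p = 0.896)). With every library set to an equal total, the median log2 fold change of all genes moved from 0.000748 to -0.13, and 12 members rose and 14 fell.

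At day 7 without IFNγ, most chains were lower in X-GFP-high cells, in which the reporter of the reactivated X chromosome was brightest, than in X-GFP-negative cells. Of 28 members tested, 22 were lower and 3 higher, which is 78.6% and 10.7% of them, beside 39.3% and 34.7% of all 15574 genes. Itgb4 was at 10255 and 9882 normalized counts in X-GFP-negative, 6473 and 6443 in X-GFP-medium and 2737 and 2391 in X-GFP-high libraries, 3.93-fold lower in the last than in the first (-1.98 ± 0.07 (SE, limma adjusted p = 4.19e-09) as log2). The 3 populations did not overlap. Itgb5 showed the same order, with 4401 and 4013, then 2647 and 2572, then 1764 and 1622 (log2 fold change -1.31 ± 0.07 (SE, limma adjusted p = 6.21e-08)). Lama1 was among the 3 that were higher, at 1470.2 and 2090.1 in X-GFP-negative, 2289 and 2713 in X-GFP-medium and 2906 and 2654 in X-GFP-high libraries (log2 fold change 0.66 ± 0.13 (SE, limma adjusted p = 7.24e-04)). The second was Itga9, at 259 and 312, 383 and 429.5 and 381 and 431 in that order (0.51 ± 0.12 (SE, limma adjusted p = 0.00334) as log2), and the third Itgae, an α chain of lymphocytes that bind epithelia. Markers moved in the same comparison. Of 9 fibroblast genes tested 7 were lower and 2 higher in X-GFP-high cells, with sums of 5283 and 4682 in X-GFP-negative and 2682 and 2194 in X-GFP-high libraries, 3 of 5 primitive endoderm genes were lower and 1 higher, 2 of 3 neural precursor genes were lower, and all 7 pluripotency genes were higher. Their part in the levels of the chains was not tested.

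X-GFP-high cells still differed from ESCs in 23 of 27 members tested, 18 lower and 5 higher in ESCs, which is 66.7% and 18.5% of them, beside 37.9% and 37.8% of all 15427 genes. Itgb4, at 2737 and 2391 in X-GFP-high and 118 and 111 in ESC libraries, was 22.1-fold lower in ESCs (-4.47 ± 0.10 (SE, limma adjusted p = 5.48e-13) as log2). Lama5, at 14591 and 14249.9 and 4468 and 4664, was 3.16-fold lower (-1.66 ± 0.05 (SE, limma adjusted p = 8.46e-12) as log2). Itga9 was higher in ESCs, with 381 and 431 against 1207 and 1055 normalized counts, 2.78-fold higher (1.48 ± 0.10 (SE, limma adjusted p = 9.19e-09) as log2). In these 3 genes the libraries of the populations did not overlap. ESCs grew on gelatin and the day 7 cells on feeders, so the stage and the culture cannot be told apart.

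**Figure D2:**
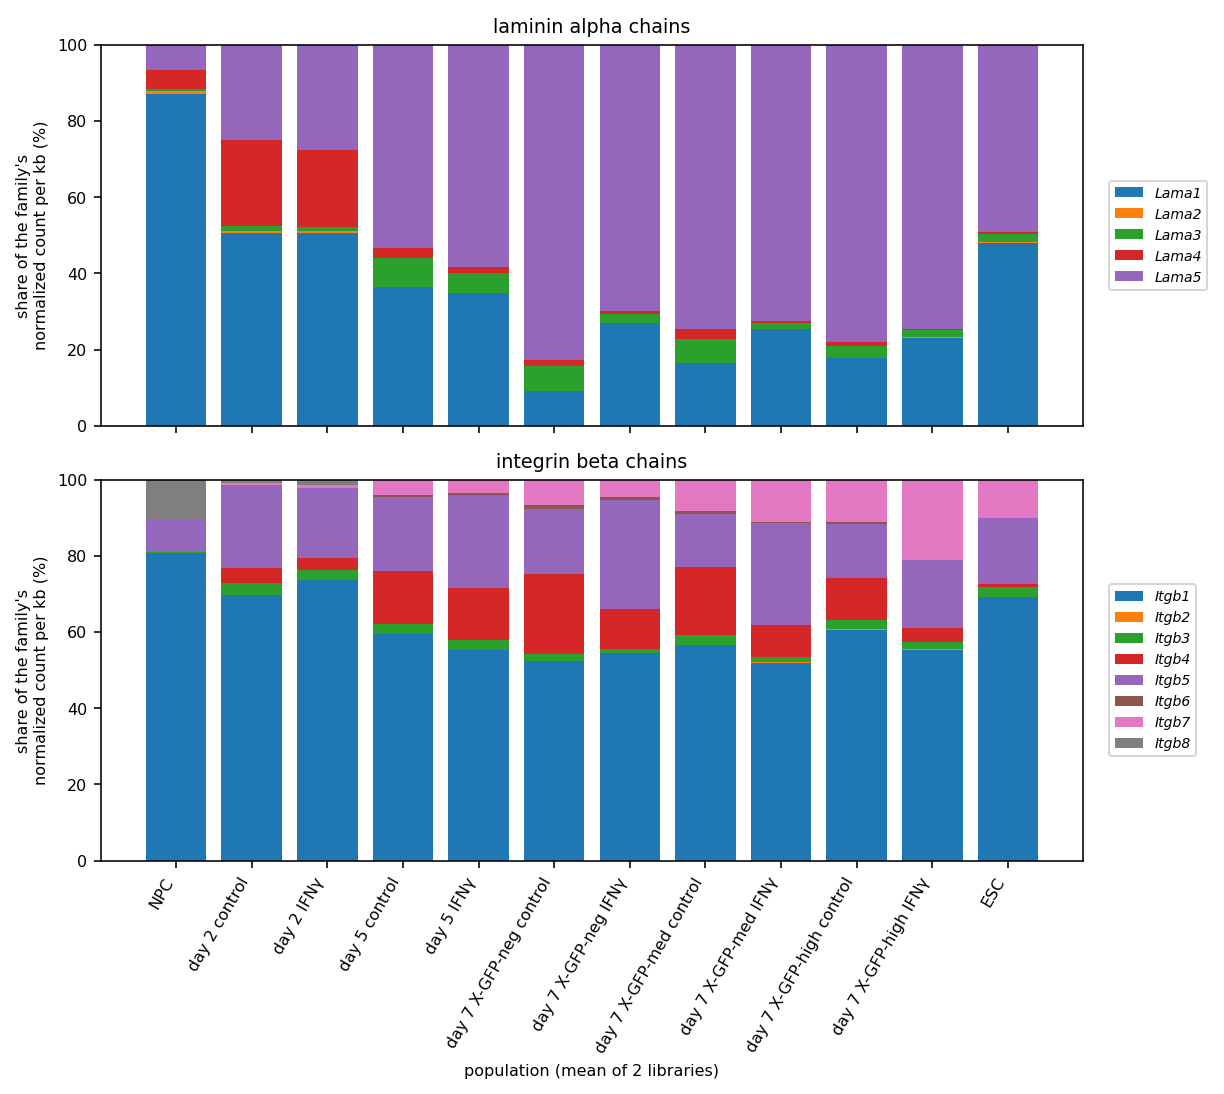
Share of each laminin α chain (top) and each integrin β chain (bottom) in the normalized count per kb of exon summed over its family, in percent, as the mean of 2 libraries for each population. In laminin α chains Lama1 holds 87.2% in NPCs and 9.05% in control X-GFP-negative cells at day 7, where Lama5 holds 82.6%.

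Within the laminin α family the course amounted to an exchange of chains. Of the normalized count per kb summed over Lama1 to Lama5, Lama1 held 86.7 and 87.7% in the 2 NPC libraries and Lama5 7.70 and 5.76%. At day 2 without IFNγ, Lama1 held 50.5%, Lama5 25.1% and Lama4 22.4% as means of 2 libraries. In control X-GFP-negative cells of day 7 the order was that of NPCs turned around, with 7.39 and 10.7% for Lama1 and 84.1 and 81.2% for Lama5, and in ESCs the chains were close, with 48.0 and 48.1% and 49.3 and 49.1%. Among the β chains of integrins, Itgb1 held 78.4 and 83.1% in NPCs, 51.9 and 52.9% in control X-GFP-negative cells and 68.0 and 70.2% in ESCs. Itgb4 held 20.9 and 20.8% in control X-GFP-negative cells and under 1% in NPCs and ESCs. A share rises where another chain of the family falls, so it is no measure of a chain's own change.

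At day 2 of treatment, IFNγ was followed by lower levels of a few integrin chains and a higher level of 1. Of 30 members tested, 6 were lower and 1 higher than in control cells, which is 20.0% and 3.33% of them, beside 3.45% and 5.03% of all 15697 genes. Itga9 (chr9:118606690-118901003) was at 1354 and 1320.1 normalized counts in control and 979.7 and 990.5 in IFNγ-treated libraries. Itga6 (chr2:71745616-71858416) was at 7145 and 6646 and 5305 and 4538. In both, each treated library lay under each control library, with log2 fold changes of -0.44 ± 0.07 (SE, limma adjusted p = 0.0154) for Itga9 and -0.49 ± 0.08 (SE, limma adjusted p = 0.0261) for Itga6. Itga4, which pairs with Itgb1 to bind fibronectin and the endothelial protein Vcam1, was at 261 and 276 in control and 139 and 190.0 in treated libraries (log2 fold change -0.72 ± 0.18 (SE, limma adjusted p = 0.0828)). The collagen receptor chain Itga11 was at 179 and 155 and 53.3 and 95.0 (log2 fold change -1.22 ± 0.29 (SE, limma adjusted p = 0.0733)). The other called decreases were Itgb5 (-0.41 as log2) and Lamc1 (-0.36 as log2). Itga3 was the chain that rose, with 524 and 466 in control and 779.6 and 699.6 in treated libraries, 1.49-fold higher (0.58 ± 0.10 (SE, limma adjusted p = 0.0296) as log2).

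The fibroblast markers moved with the day 2 decreases. Of the 11 fibroblast genes, 4 fell with IFNγ, namely Thy1, Postn, Col1a2 and Col1a1, with the sums given above. The 4 Y-linked genes passed the filter but not the threshold, at a median log2 fold change of -0.53. The part of the feeders in the decreases was not tested. Without control replicate 1, whose fibroblast sum was the highest, limma called 3 decreases in place of 6, with adjusted p of 0.132 for Itga6, 0.230 for Itga4 and 0.269 for Itga11. With no filter on low values, the adjusted p was 0.170 for Itga11 and 0.169 for Itga4. In 1 fit of all 24 libraries it was 0.247 for Itga9, 0.232 for Itga11 and 0.328 for Itga4, and Itga3 was not called without control replicate 2 (0.129) or without treated replicate 1 (0.103).

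At day 5, the last day of treatment, the number of chains called depended on the fit. Of 29 members tested, 1 was higher and 1 lower, which is 3.45% of them in either direction, beside 1.65% and 0.535% of all 15133 genes. Lamb1 (chr12:31265234-31329644), the laminin β chain of the early embryo, was at 3596 and 3726 normalized counts in control and 4839 and 5779.6 in treated libraries. Itga7 (chr10:128933818-128958282), a laminin receptor chain of muscle, was at 194 and 194 and 108 and 100.4. Neither pair of groups overlapped, and the log2 fold changes were 0.53 ± 0.10 (SE, limma adjusted p = 0.0690) and -0.90 ± 0.17 (SE, limma adjusted p = 0.0801). Itga9 was at 519 and 417 in control and 358 and 229 in treated libraries, without overlap but with a log2 fold change of -0.70 ± 0.23 (SE, limma adjusted p = 0.197) that did not pass the threshold. Both DESeq2 and 1 fit of all 24 libraries called 2 higher and 4 lower. Over all genes, DESeq2 called 556 higher and 356 lower of 15133, and the fit of all 24 libraries 1422 and 1078 of 16247. With no filter on low values, neither Lamb1 (0.140) nor Itga7 (0.136) was called, and both were also lost without control replicate 1, control replicate 2 or treated replicate 2, at adjusted p of 0.137 to 0.298.

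At day 7, after IFNγ had been taken away, the chains differed widely in X-GFP-negative cells, the SSEA1-positive cells in which the X chromosome reporter was still silent. Of 28 members tested, 17 were lower and 5 higher with IFNγ, which is 60.7% and 17.9% of them, beside 30.8% and 31.1% of all 15531 genes. The median log2 fold change was -0.37 over the members and 0.0161 over all genes. Itgb4, Lamb3 and Lama3, which serve the hemidesmosomes of epithelial cells, had the largest decreases among members with a group mean of at least 100. Itgb4 (chr11:115974709-116008412) was at 10255 and 9882 normalized counts in control and 2907 and 2935 in treated libraries, 3.45-fold lower (-1.78 ± 0.06 (SE, limma adjusted p = 4.70e-07) as log2). Lamb3 was at 554 and 465 and 154 and 148 (log2 fold change -1.74 ± 0.13 (SE, limma adjusted p = 8.51e-06)), and Lama3 at 1522 and 1395 and 449 and 526 (log2 fold change -1.58 ± 0.10 (SE, limma adjusted p = 4.25e-06)). Every treated library held less than every control library in all 3. Itga7 fell alike, from 753 and 826 to 269.5 and 257 (log2 fold change -1.58 ± 0.10 (SE, limma adjusted p = 4.50e-06)). Itgb1, the most abundant β chain, was at 14827 and 14581 and 8895 and 9139, 1.63-fold lower (-0.71 ± 0.05 (SE, limma adjusted p = 1.15e-05) as log2).

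Of the 28 members tested in X-GFP-negative cells, 10 had been higher in both NPC libraries than in both control libraries, and of these 5 rose with IFNγ, 3 fell (Itga4, Itga9 and Lama4) and 2 were not called (Itga10 and Lamb2), while of the other 18 none rose and 14 fell. The split by NPCs and the IFNγ calls use the same 2 control libraries. A chain low in these libraries leans towards both groups, so the tally is no test, and it was not made over all genes. Lama1 (chr17:67697259-67822647) was at 1470.2 and 2090.1 normalized counts in control and 5354 and 4899 in treated libraries, 2.92-fold higher (1.55 ± 0.14 (SE, limma adjusted p = 2.36e-05) as log2), and Lamb1, which joins it, at 2600.2 and 2879.8 and 5798 and 5404, 2.05-fold higher (1.03 ± 0.07 (SE, limma adjusted p = 6.77e-06) as log2). Itga1 (chr13:114953096-115101964), a collagen receptor chain, was at 56.0 and 54.7 and 257 and 248 (log2 fold change 2.17 ± 0.15 (SE, limma adjusted p = 7.19e-06)), and Itga8, which binds nephronectin, at 32.9 and 22.5 and 97.7 and 116 (log2 fold change 1.93 ± 0.25 (SE, limma adjusted p = 1.97e-04)). Itgb8 was at 21.9 and 21.5 and 75.2 and 73.2 (1.73 ± 0.23 (SE, limma adjusted p = 2.59e-04) as log2), far below the 4054 and 3596 of NPCs. No control library reached a treated one in these 5 chains, which were all that rose. Itga6, the laminin receptor chain, was at 10537 and 10285 and 11295 and 10517, with overlap and a log2 fold change of 0.07 ± 0.06 (SE, limma adjusted p = 0.373). Lama1's share of the α chains was 7.39 and 10.7% in control and 27.0 and 26.8% in treated libraries, and that of Lama5 84.1 and 81.2% and 70.2 and 69.5%.

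Markers of primitive endoderm, an embryonic lineage that lays down laminin with Lama1 and Lamb1, moved with these chains in X-GFP-negative cells. Their 6 genes summed to 658 and 641 in control and 1339 and 1441 in treated X-GFP-negative libraries, and 5 of the 6 rose, namely Sox17, Foxa2, Dab2, Gata6 and Sox7, beside 31.1% of all genes. In X-GFP-medium cells 4 rose and 1 fell. In X-GFP-high cells 2 rose and 2 fell, with sums of 469 and 449 in control and 418 and 376 in treated libraries. The 6 neural precursor genes summed to 4838 and 4771 in control and 4989 and 5200 in treated X-GFP-negative libraries, with 1 of 5 tested higher. Of the 7 pluripotency genes, 6 rose in the same comparison, with sums of 20356 and 23226 and 34294 and 32124. The fibroblast sum was 5283 and 4682 and 1158 and 1223, with 2 of 9 genes tested higher and 2 lower, and the Y-linked sum was at most 5 normalized counts in each library. The part of these markers in the result was not tested. Scaling mattered here as well. When each library was set to an equal total, the median log2 fold change of all genes was 0.17, 6745 genes were higher and 3421 lower in place of 4836 and 4781, and 6 members were higher and 15 lower. Itga3 and Itga9, both called lower in X-GFP-negative cells, then had adjusted p of 0.146 and 0.207. Itga9 stood at 259 and 312 in control and 198 and 238 in treated libraries (-0.39 ± 0.15 (SE, limma adjusted p = 0.0470) as log2), and it was also lost without control replicate 2 (0.276) or treated replicate 1 (0.201).

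**Figure D3:**
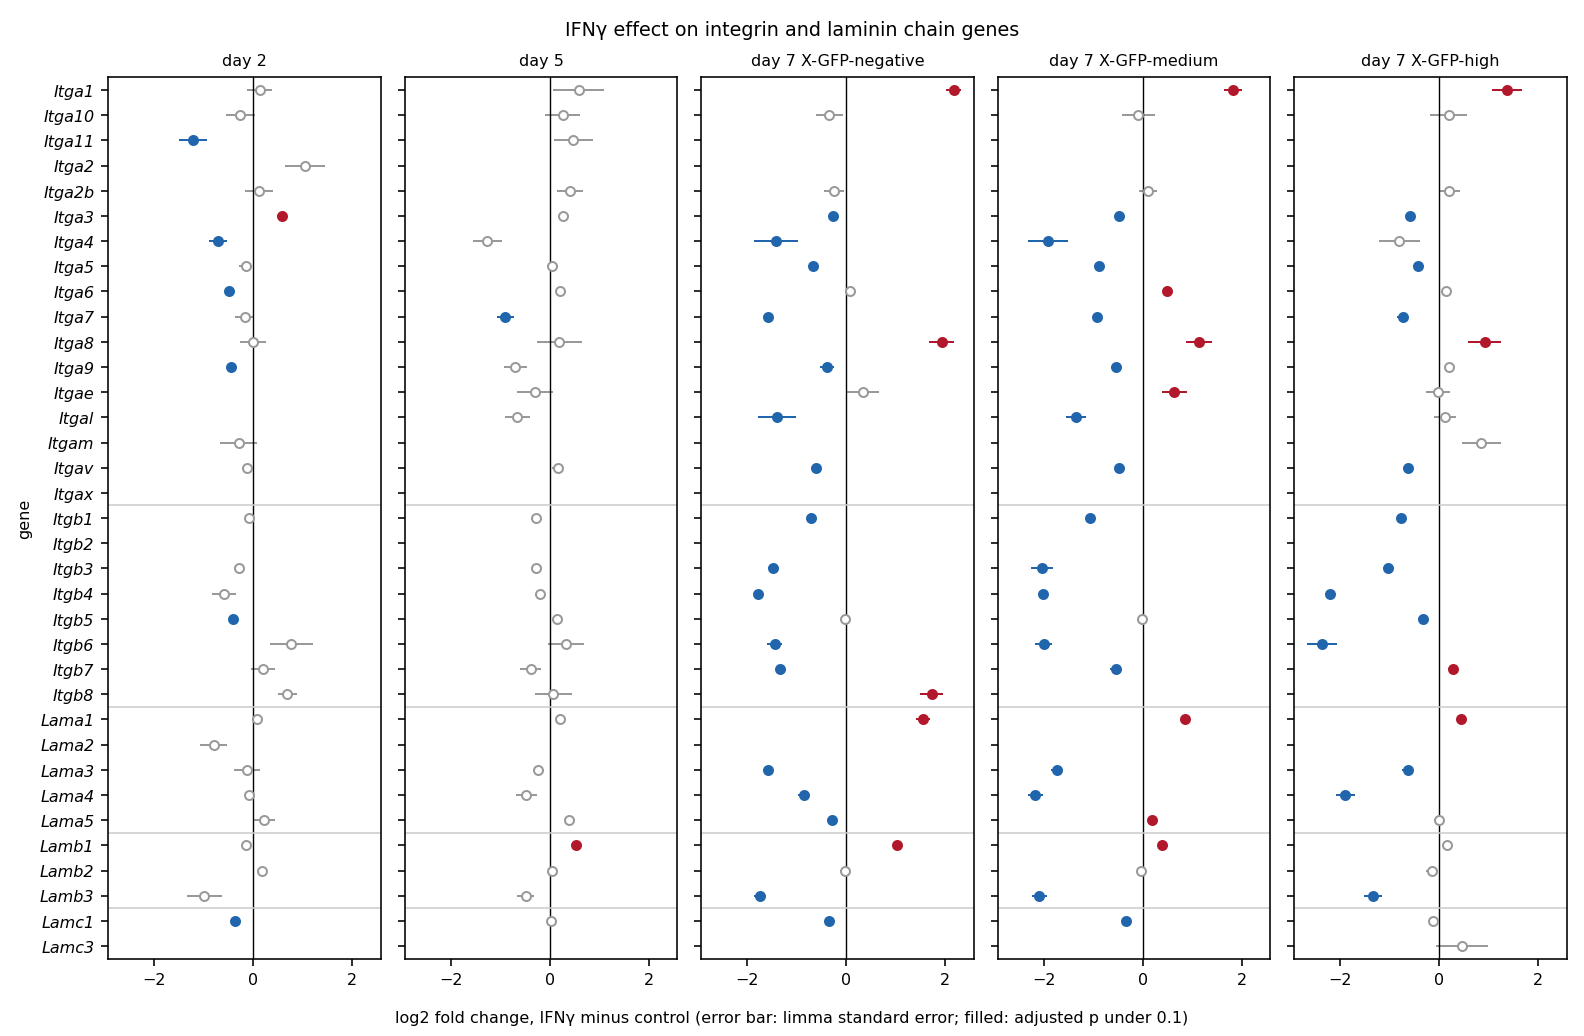
Log2 fold change of IFNγ-treated against control cells for the members tested in each of 5 comparisons, with the limma standard error as a bar, 1 row per gene. Filled points passed an adjusted p of 0.1 (red higher, blue lower), open grey points did not, and rows without a point were not tested. Filled points number 7 at day 2, 2 at day 5, and 22, 23 and 16 in X-GFP-negative, -medium and -high cells at day 7.

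In X-GFP-medium cells, 16 of 27 members tested were lower with IFNγ and 7 higher, which is 59.3% and 25.9% of them, beside 29.6% and 33.3% of all 15595 genes. Lama4 (chr10:38965515-39110188) was at 423 and 538 normalized counts in control and 98.5 and 112 in treated libraries, 4.51-fold lower (-2.17 ± 0.15 (SE, limma adjusted p = 2.56e-06) as log2). Lamb3 was at 320.2 and 328 and 81.7 and 69.0 (-2.10 ± 0.15 (SE, limma adjusted p = 3.17e-06) as log2), Itgb4 at 6473 and 6443 and 1435 and 1792 (-2.01 ± 0.09 (SE, limma adjusted p = 4.22e-07) as log2), and Itgb3 at 813 and 854 and 150.0 and 272 (-2.04 ± 0.22 (SE, limma adjusted p = 3.38e-05) as log2). All 4 fell without overlap of the groups, and the treated libraries of Itgb3 differed the most as a ratio. The increases were smaller. Itga1 was at 40.5 and 45.4 in control and 153 and 155 in treated libraries (1.82 ± 0.19 (SE, limma adjusted p = 2.90e-05) as log2), Lama1 at 2289 and 2713 and 4229 and 4821 (0.86 ± 0.09 (SE, limma adjusted p = 3.25e-05) as log2), and Lamb1 at 2497 and 2815 and 3292 and 3635 (0.38 ± 0.08 (SE, limma adjusted p = 0.00191) as log2). Itga6 rose too, from 8905 and 9245 to 12769.8 and 12557 (0.48 ± 0.06 (SE, limma adjusted p = 6.37e-05) as log2), while its partner Itgb1 fell from 11822 and 12166 to 5352 and 6102 (-1.07 ± 0.07 (SE, limma adjusted p = 1.77e-06) as log2). The fibroblast sum was 5781 and 5226 in control and 727 and 827 in treated libraries, with 5 of 9 genes tested lower and 2 higher. All 7 pluripotency genes rose, with sums of 44512 and 45894 in control and 74758 and 72560 in treated libraries. Of 3 neural precursor genes tested, 2 fell and 0 rose, with sums of 2983 and 3235 and 1548 and 1852. The part of these markers in the levels of the chains, Lama4 included, was not tested.

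In X-GFP-high cells, 12 of 29 members tested were lower with IFNγ and 4 higher, which is 41.4% and 13.8% of them, beside 20.4% and 18.1% of all 15598 genes. Itgb4 was at 2737 and 2391 normalized counts in control and 531 and 569.8 in treated libraries, 4.64-fold lower (-2.22 ± 0.09 (SE, limma adjusted p = 2.35e-07) as log2). Lama4 was at 216 and 196 and 49.1 and 60.1 (-1.90 ± 0.19 (SE, limma adjusted p = 2.63e-05) as log2), Lamb3 at 219.6 and 212 and 97.1 and 74.0 (-1.34 ± 0.18 (SE, limma adjusted p = 2.39e-04) as log2), and Itgb3 at 474 and 492 and 229.6 and 243 (-1.03 ± 0.12 (SE, limma adjusted p = 6.45e-05) as log2). Treated libraries lay under control libraries in each. The fibroblast sum was 2682 and 2194 in control and 643 and 722 in treated libraries, with 2 of 8 genes tested lower and 1 higher. Of the 7 pluripotency genes, 6 rose. Of 3 neural precursor genes tested, 2 fell and 0 rose, with sums of 1631 and 1569 in control and 711 and 747 in treated libraries. The part of these markers in the result was not tested. Lama1 was at 2906 and 2654 and 4127 and 3444 (0.44 ± 0.09 (SE, limma adjusted p = 0.00334) as log2), higher without overlap. Itgb7 was at 957 and 1089.8 and 1179 and 1297 (0.28 ± 0.09 (SE, limma adjusted p = 0.0412) as log2), a call that was lost with no filter on low values (0.148), in 1 fit of all 24 libraries (0.327), with DESeq2 on recovered reads (0.111) and without control replicate 1 (0.385).

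Across the 3 day 7 populations, which do not share libraries, each comparison gave its own values. Itgb1, Itga3, Itga5, Itga7, Itgav, Itgb3, Itgb4, Itgb6, Lama3, Lama4 and Lamb3 were called lower in all 3, and Itga1, Itga8 and Lama1 higher in all 3. Of the 27 members tested in all 3, these were 40.7% and 11.1%, beside 16.9% and 12.3% of the 14712 genes tested in all 3. Of these 14, the limma call of Itga3 in X-GFP-negative cells was lost on rescaling as given above, and that of Itga8 in X-GFP-high cells with no filter on low values (0.193), with DESeq2 (0.194) and without control replicate 1 (0.349) or treated replicate 1 (0.262). Itgav fell by 0.62, 0.48 and 0.63 on the log2 scale in X-GFP-negative, -medium and -high cells, and Itga5, the α chain of the fibronectin receptor, by 0.67, 0.89 and 0.43. Itgb6, an epithelial partner of Itgav, fell by 1.45, 2.00 and 2.38. The 3 populations came from the same 2 arms of the culture, whose source per replicate is not stated in the labels.

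**Figure D4:**
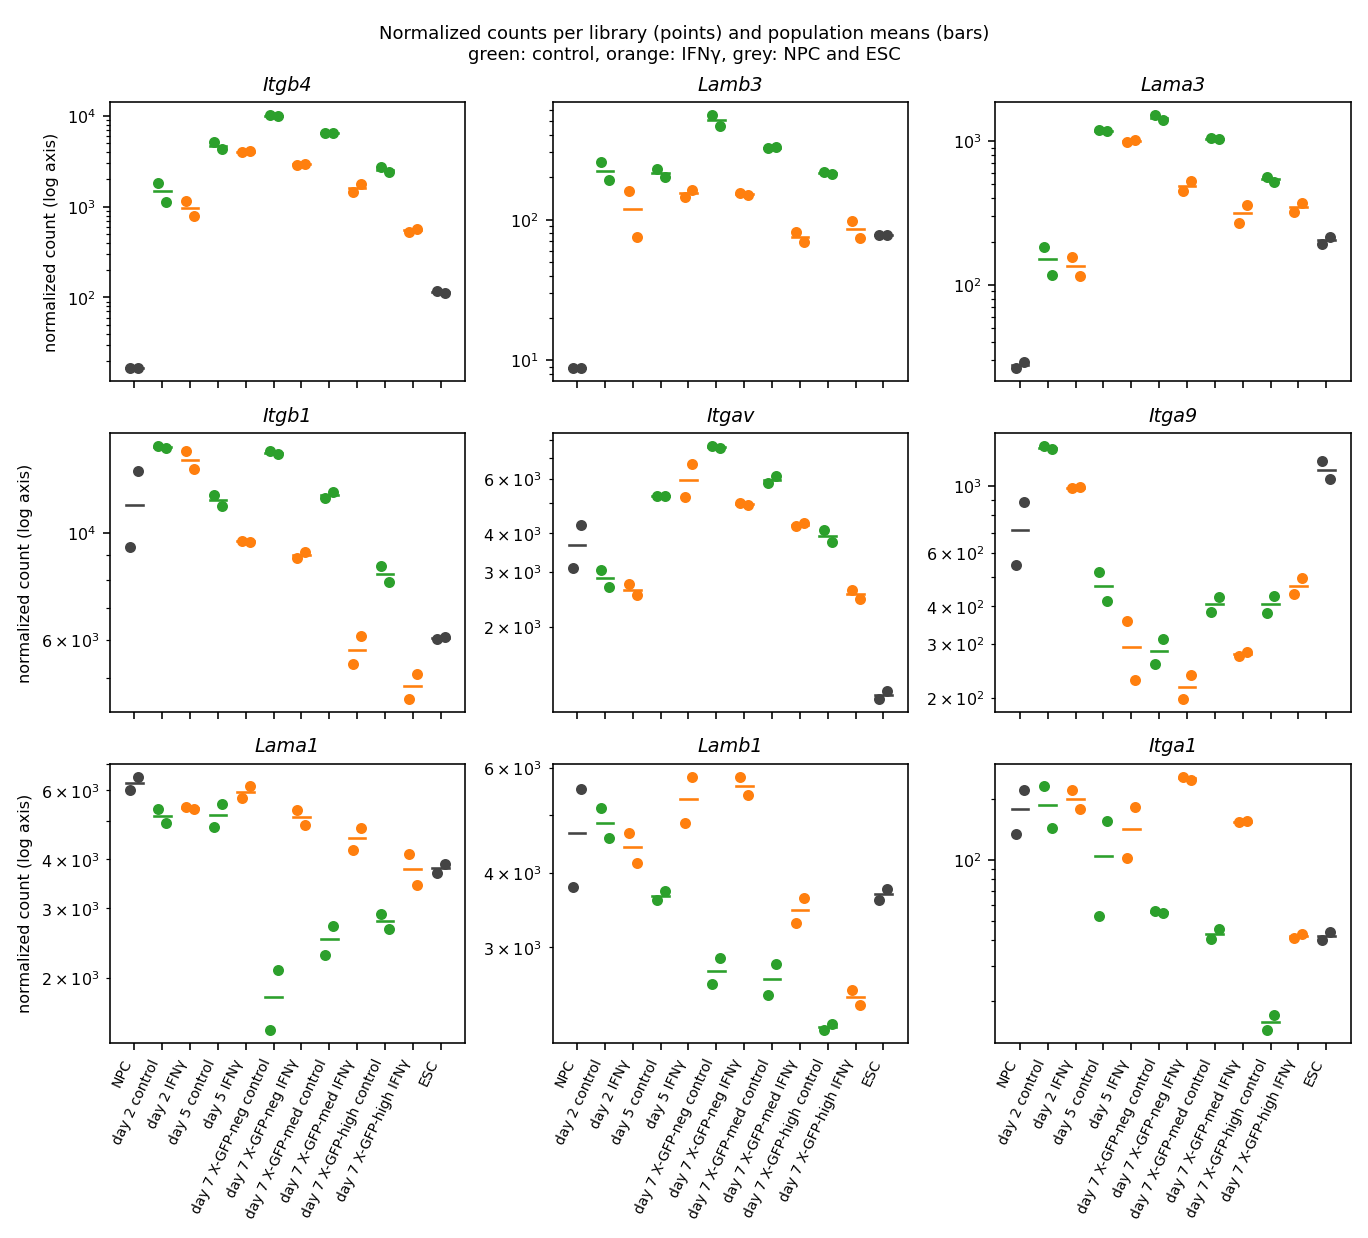
Normalized counts of 9 members in each library (points, on a log axis) and their population means (bars), from NPCs to ESCs, with control cells in green and IFNγ-treated cells in orange. Itgb4, Lamb3, Lama3 and Itgb1 show the orange points under the green ones in all 3 day 7 populations, and Lama1 and Itga1 above them.

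The effect of IFNγ was then compared between stages in 8 libraries, by testing the difference of the log2 fold changes. Between day 5 and day 2, 2 of 30 members tested differed and both in the direction of a higher value at day 5, beside 0.202% of all 15837 genes in that direction and 0.474% in the other. They were Itgb5, with a difference of 0.56 ± 0.09 (SE, limma adjusted p = 0.0307), and Itga6, with 0.69 ± 0.13 (SE, limma adjusted p = 0.0918). Each was lost when 1 of 6 libraries of the 8 was left out, at adjusted p of 0.101 to 0.190 for Itgb5 and 0.164 to 0.311 for Itga6. Itga9 did not differ by the test, with -0.26 ± 0.27 (SE, limma adjusted p = 0.793). Between the X-GFP-medium and the X-GFP-negative cells, 9 of 28 differed, 4 higher and 5 lower in X-GFP-medium, beside 7.31% and 8.36% of all 15627 genes. The fall of Lama4 was larger in X-GFP-medium cells by -1.32 ± 0.20 (SE, limma adjusted p = 0.00424), while the rise of Lamb1 was smaller by -0.65 ± 0.11 (SE, limma adjusted p = 0.00716). Lama5 fell slightly in X-GFP-negative and rose slightly in X-GFP-medium cells, with 19663 and 18637 in control and 16377 and 14942 in treated libraries of the first and 13396 and 13062 and 15402 and 14847 of the second, a difference of 0.48 ± 0.08 (SE, limma adjusted p = 0.00627) that was lost in 1 fit of all 24 libraries (0.257). With every library set to an equal total, 398 genes were higher and 2864 lower in place of 1142 and 1307, the median over all genes moved from 0.00134 to -0.16, and 14 members differed.

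Between X-GFP-high and X-GFP-medium cells, 9 of 28 members differed, 7 higher and 2 lower in X-GFP-high, beside 4.71% and 8.06% of all 15623 genes. Itga9 was one of them. It was at 383 and 429.5 in control and 274 and 283 in treated X-GFP-medium libraries (log2 fold change -0.54 ± 0.11 (SE, limma adjusted p = 0.00231)), and at 381 and 431 and 439 and 495 in X-GFP-high libraries (0.20 ± 0.12 (SE, limma adjusted p = 0.221)). The treated libraries lay under the controls in the first and above them in the second, and the difference of 0.74 ± 0.16 (SE, limma adjusted p = 0.0215) passed the threshold. It did not pass in 1 fit of all 24 libraries (0.161) or without X-GFP-medium control replicate 2 (0.103). Itgb7 also turned, from 1222 and 1184 in control and 732 and 919 in treated X-GFP-medium libraries to the increase given above, a difference of 0.83 ± 0.15 (SE, limma adjusted p = 0.0131) that was lost in 1 fit of all 24 libraries (0.113). In Lama3 the fall became smaller, from 1046 and 1034 against 271 and 358 to 559.9 and 523 against 321 and 374, a difference of 1.10 ± 0.18 (SE, limma adjusted p = 0.00949).

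The other genes of the pathway were read from 2 lists, 13 partners of integrins and laminins in the matrix and at the cell surface, and 25 adaptors that link integrins to the cytoskeleton or regulate them. Among matrix partners, 2 of 13 rose and 2 fell with IFNγ at day 2, and 2 of 12 rose at day 5, beside the shares of all genes given above for each comparison. At day 7, 9 of 13 rose in X-GFP-negative, 11 of 12 rose in X-GFP-medium cells, and 6 of 12 rose and 1 fell in X-GFP-high cells, beside 31.1%, 33.3% and 18.1% of all genes higher. Bcam, a surface receptor for Lama5, rose in all 5 comparisons, by log2 fold changes of 0.61 at day 2, 0.92 at day 5, and 1.21, 1.58 and 0.77 in the 3 day 7 populations in the order used above. In X-GFP-medium cells, Tnc, the gene of the Itga9 ligand tenascin-C, had 1.88 ± 0.30 (SE, limma adjusted p = 5.27e-04) as log2 fold change. Vtn, which codes for the Itgav ligand vitronectin, had 2.41 ± 0.44 (SE, limma adjusted p = 0.00143) in the X-GFP-negative cells. In the other day 7 populations Vtn fell under the filter on low values and was not tested. Of the 13 partners, 1 had at most 3 reads in each control X-GFP-negative library, and 0 did in the treated ones. The counts of Vtn are not given here, and its fold change may rest on few control reads.

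Adaptors went both ways. With IFNγ, 4 of 25 rose at day 2, and 1 fell at day 5, beside 5.03% of all genes higher at day 2 and 0.535% lower at day 5. At day 7, 8 rose and 12 fell in X-GFP-negative, 6 rose and 14 fell in X-GFP-medium, and 4 rose and 13 fell in X-GFP-high cells. The shares of all genes that fell were 30.8%, 29.6% and 20.4%, and the 8, 6 and 4 adaptors that rose were near or under the shares of all genes that rose. Fermt3, the kindlin of blood cells, fell most in all 3, by log2 fold changes of -2.69, -2.62 and -1.85. Lims2, the gene of PINCH2, an Ilk partner, had -2.51 and -2.05 in X-GFP-negative and X-GFP-medium cells. The adaptors that rose included Parvb, which codes for a parvin that binds Ilk, with 1.02 in X-GFP-medium cells, and Fblim1, which codes for migfilin, with 1.32 in X-GFP-negative cells. The median log2 fold change over the 25 adaptors was -0.15, -0.25 and -0.18 in the 3 populations, that over the matrix partners tested 0.44, 0.61 and 0.26, and that over all genes 0.0161, 0.0439 and 0.0265.

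Promoters of genes that respond to interferons often hold GAS motifs or ISRE-like repeats, so the promoter windows of the members were searched for both. RefSeq windows on GRCm38.p6 were at hand for 23 of the 35 members, as 26 windows of the 250 bases before a start site. GAS was spelled TTCNNNGAA and was found on either strand in 7.02% of all 32841 windows and in 2 members, Itga10 and Lamb2. The ISRE-like motif was taken as 2 copies of GAAA with 2 bases of any kind between them and was found on either strand in 2.98% of all windows and in 2 members, Itga3 and Itga2b. The 4 stretches are printed 5′ to 3′ on the gene's strand, with the match in capitals, since they are the members' matches to the motifs of this cytokine.
Itga10, chr3:96645385-96645413, plus strand: aatttgtgttTTCTTTGAAtattagctga
Lamb2, chr9:108479644-108479672, plus strand: tcccttttagTTCCTCGAActaagctgct
Itga3, chr11:95076795-95076824, minus strand: gcggggacctTTTCTCTTTCcccggaagga
Itga2b, chr11:102469982-102470011, minus strand: cagaggaagaGAAAGAGAAAggggattgcc
The matches began 189, 208, 100 and 118 bases before the RefSeq start site, in the order of the lines. In vM21, whose start of Itga2b lies farther upstream (chr11:102453297-102470122), its stretch falls inside the gene, and both it and the stretch of Itga3 overlap annotated exons. The GAS letters overlap neither of the other motifs in these stretches. Of the 4 genes, Itga3 was called higher with IFNγ at day 2 and lower in the 3 day 7 populations, and Itga10, Lamb2 and Itga2b were called in none of the 5 IFNγ comparisons. Lamb2 was at 5274 and 5196 in control and 5873 and 5969 in treated libraries at day 2 (log2 fold change 0.18 ± 0.05 (SE, limma adjusted p = 0.105)). The AP-1 motif, spelled TGANTCA, was in 6.75% of all windows and in 1 member, Itgax. A match of letters is no binding site, and windows of other members were not searched here.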

How the data were processed

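The authors deposited 1 table of normalized counts per gene, a signal in units of reads after scaling. Per the study's methods and the submitters' processing notes, read pairs were aligned with STAR and WASP to mm10 with strain variants masked, counted with HTSeq 0.6.1 and divided by DESeq2 size factors. The strand setting of the counting is not given in the sources used here. In each library 100% of values were whole multiples of 1 step, within 1e-06, so whole reads were recovered. The deposited fractions of allele-specific reads hold no member and were not used.

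Of the gene identifiers, 95.2% were in GENCODE vM21, which gave symbols, coordinates and exon lengths. The members and lists were chosen with earlier results of these data known. limma 3.58.1 (R 4.3.3, lmFit, eBayes with trend) was run on log2(normalized count + 1), two-sided, over all genes with a mean above 10 in the 4 libraries of a comparison, or the 8 of a difference of comparisons, with the Benjamini-Hochberg adjustment and a threshold of 0.1. The pseudocount lowers the fold change of low genes. Exact tests were not used, since 2 libraries against 2 cannot give a two-sided p under 0.33. The floor (3 reads) covers counting error only. Each ± is a limma standard error, which rests on the spread between libraries. Alternatives were a pseudocount of 0.1, no filter, an equal total for every library (rescaling), a single fit over all 24 libraries, a block on the replicate number, the recovered reads tested with edgeR 4.0.16 (quasi-likelihood) or DESeq2 1.42.0, and leaving out each library. A crossed block for day 2 against NPCs was added after seeing the data. The procedure was tested on simulated data.

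Values in every library are given for Itga9, for up to 4 members with the largest increase and decrease per IFNγ comparison (called, a group mean of at least 100, no overlap), and for the 2 integrin α, 2 integrin β and 3 laminin chains with the highest level per kb in NPCs and in ESCs. Itga5, Itgb6, Itga10, Itgae, Itgal, Itga2b and other members are given by range, count or fold change, and Itga10, Lamb2, Itga2b and Itgax also for their promoter matches. Python 3.11.15, numpy 2.4.6, pandas 2.3.3 and matplotlib 3.10.9 were used.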

Additional observations from a re-analysis of the deposited data

Results flagged for a closer look

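In 20 cases the IFNγ effect on a chain differed between 2 stages or populations by limma's test of the difference itself, given here as the later or brighter population minus the other, on the log2 scale.

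Between day 5 and day 2 the difference was 0.69 (adjusted p = 0.0918) for Itga6 and 0.56 (adjusted p = 0.0307) for Itgb5. At day 2, where feeder markers were present, the treated libraries were lower than control for both.

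Between the X-GFP-medium and the X-GFP-negative cells, 4 chains had a higher effect in X-GFP-medium cells. The limma differences were 0.41 (adjusted p = 0.00836) for Itga6, 0.66 (adjusted p = 0.0134) for Itga7, 0.79 (adjusted p = 0.00881) for Itgb7 and 0.48 (adjusted p = 0.00627) for Lama5. The other 5 had a lower effect, with -0.36 (adjusted p = 0.0310) for Itgb1, -1.57 (adjusted p = 0.0610) for Itgb8, -0.69 (adjusted p = 0.0599) for Lama1, -1.32 (adjusted p = 0.00424) for Lama4 and -0.65 (adjusted p = 0.00716) for Lamb1 by limma. Itgb8 was at 8.89 and 6.20 in control and 6.72 and 10.5 in treated X-GFP-medium libraries, near the filter on low values, and its call was lost with DESeq2 (0.272), as was that of Lama1 (0.164).

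Between X-GFP-high and X-GFP-medium cells, 7 chains had a higher effect in X-GFP-high cells. The limma differences were 0.46 (adjusted p = 0.0321) for Itga5, 0.74 (adjusted p = 0.0215) for Itga9, 1.46 (adjusted p = 0.0161) for Itgal, 1.01 (adjusted p = 0.0629) for Itgb3, 0.83 (adjusted p = 0.0131) for Itgb7, 1.10 (adjusted p = 0.00949) for Lama3 and 0.76 (adjusted p = 0.0773) for Lamb3. For Itga6 and Itgb5 the effect was lower, with -0.34 (adjusted p = 0.0296) and -0.32 (adjusted p = 0.0775) by limma. Itgb5 was lost in most alternatives, edgeR included (0.120). Of the 20 differences, the signs are those of the deposited scaling, and no cause was tested.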

How the results depend on the processing

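No call of a named chain changed its sign under any alternative. Of 213 called values, edgeR, the pseudocount of 0.1 and the replicate block each lost 1, rescaling 3, DESeq2 13 and no filter on low values 14, and 1 fit of all 24 libraries lost 25 of 210. At day 2 the higher chains numbered 2 with DESeq2 in place of 1. At day 5, where 1 rose and 1 fell, limma with no filter called 0 and 0 (10 members had an unadjusted p under 0.05 with the filter), 1 fit of all libraries 2 and 4, and DESeq2 2 and 4. The counts of all genes in the last 2 of these fits are given above. In X-GFP-high cells 2 were higher with no filter and 2 with DESeq2 in place of 4. Differences between day 5 and day 2 numbered 1 with a pseudocount of 0.1, 1 with no filter and 4 with DESeq2 in place of 2, those between the X-GFP-medium and the X-GFP-negative cells 14 on rescaling in place of 9, and those between X-GFP-high and X-GFP-medium cells 3 in 1 fit of all libraries in place of 9. The cause was not tested. Values below the threshold turned their sign with 1 library left out in 3 cases, the difference between day 5 and day 2 of Itga9 (-0.58 to 0.063 on the log2 scale), Itgal in X-GFP-high cells (-0.0518 to 0.27) and Lamb3 from day 2 to day 5 (-0.24 to 0.18).

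Same-numbered replicates share only a number, since no source says that they were handled together. Their deviations from the group means correlated at 0.41 at day 2 and 0.36 at day 5, and at 0.19, 0.11 and 0.024 in X-GFP-negative, -medium and -high cells. With the replicate block, 5 chains were higher and 12 lower at day 2, and 6 higher and 11 lower at day 5, and the other counts stayed within 1.5 times. The block raised the counts of all genes as well. It called 2652 higher and 2343 lower of 15697 genes at day 2, and 1810 and 1569 of 15133 at day 5. For day 2 against NPCs, where the correlation was -0.15, the crossed block called 19 higher and 6 lower.

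With 1 library left out, the lone library of its group being assumed to vary like the others, IFNγ was followed at day 2 by 3 to 7 decreases and 1 to 1 increase, at day 5 by 0 to 5 of each, and in X-GFP-high cells by 2 to 8 increases. At day 5 the counts of 0 came without control replicate 1, control replicate 2 or treated replicate 2, and in X-GFP-high cells 2 came without control replicate 1 and 8 without treated replicate 2. Differences numbered 0 to 3 between day 5 and day 2, 7 to 11 between the X-GFP-medium and the X-GFP-negative and 4 to 11 between X-GFP-high and X-GFP-medium cells. The first fell to 0 without either day 2 control library, day 2 treated replicate 2, day 5 control replicate 2 or day 5 treated replicate 2, and the last to 4 or 5 without any 1 of the 4 control libraries. Chains under 100 normalized counts, such as Itgb8 at day 7, rest on few reads.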

Other observations

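The following chains fell outside the rule for named genes and were chosen after their values were seen. Itgal, the α chain of the lymphocyte receptor for Icam1, was at 94.3 and 99.9 normalized counts in ESCs and 0.972 and 0 in NPCs. It was at 105 and 97.1 in control and 38.1 and 39.7 in treated X-GFP-medium libraries (log2 fold change -1.35 ± 0.21 (SE, limma adjusted p = 3.53e-04)), and at 68.1 and 85.4 and 74.3 and 91.3 in X-GFP-high libraries (0.11 ± 0.22 (SE, limma adjusted p = 0.746)). The groups lay apart in the first and overlapped in the second. Its usual partner Itgb2 stayed at or under 9.25 in every library, and Ptprc, the pan-leukocyte gene, belongs to the blood cell list whose sums are given above. Itgb6 was at 0.972 and 0.878 in NPCs, 0.983 and 0 in ESCs and 518 and 446 in control X-GFP-negative libraries, where treated libraries held 199.7 and 154 (log2 fold change -1.45 ± 0.15 (SE, limma adjusted p = 5.57e-05)). It was thus nearly confined to the reprogramming cells among these 12 populations.

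Lamc3, a γ chain, was at 70.0 and 58.0 in NPCs and 3.06 and 2.98 at day 2 without IFNγ, a log2 fold change of -4.01 ± 0.32 (SE, limma adjusted p = 2.15e-04), and Itga2, a collagen receptor chain, at 23.3 and 31.6 and 6.11 and 6.95 (-1.91 ± 0.35 (SE, limma adjusted p = 0.00425)). Itgae was at 68.8 and 71.4 in ESCs, 19.7 and 15.0 in control X-GFP-negative and 77.3 and 58.7 in control X-GFP-high libraries. The last 2 populations did not overlap, with a log2 fold change of 1.91 ± 0.27 (SE, limma adjusted p = 8.48e-05) for X-GFP-high against X-GFP-negative cells.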
